A study of Homo sapiens with 18 samples.

Results

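Among the DRIP–seq regions that were called in DMSO-treated cells of both lines, WT and A3B KO, 1846 of 48210 were called in none of the 4 lists made after PMA. They are named DMSO-only regions here. Their members were selected on measured values, namely on the presence or absence of a called window in each list: the windows of the 6 DRIP–seq lists on chromosomes 1 to 22 and X were joined wherever they overlapped by 1 bp or more, which gave 250966 merged regions, and a region was kept when it held a window from WT with DMSO and a window from A3B KO with DMSO and no window from any PMA list. The DMSO-only regions were therefore 3.83% of the regions shared by both DMSO lists, and that share, like every enrichment value in the DMSO lists, is a description of the choice and not a finding. The count depends on how long the lists are: with every list cut to the 91894 windows of highest −log10 q it was 5332, or 11.5%.

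An R-loop forms when a transcript pairs with the template strand of its gene and leaves the other DNA strand single. R-loops are known to build up just past gene starts, where the displaced strand is rich in G, and around gene ends, where RNA polymerase pauses before termination. They are removed by RNase H enzymes and helicases, and APOBEC3B (A3B) is a cytosine deaminase that acts on single-stranded DNA. DRIP–seq pulls down RNA/DNA hybrids with the S9.6 antibody and sequences the DNA. A called window says that the pull-down exceeded its input there, and without an RNase H-treated library in these lists the hybrid content of a single window was not tested.

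MCF10A is a non-tumour human breast epithelial line that grows in the presence of EGF. The DRIP–seq libraries came from WT MCF10A cells and from 1 A3B KO clone, which was made with a guide that matches both APOBEC3A and APOBEC3B. Each line was sampled with DMSO, after 2 h and after 6 h of PMA at 25 ng/ml, an activator of protein kinase C, with 1 library for each condition made from pooled S9.6 pull-downs. The 3 ChIP–seq lists set beside them came from other cells, MCF10A-TREx-A3B-eGFP, in which 1 µg/ml doxycycline for 24 h switches on A3B-eGFP. One list is from DMSO-treated cells without doxycycline, another from cells given doxycycline and DMSO, and the last from cells given doxycycline and then PMA for 2 h.

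The lists held 91894 windows in WT and 98432 in A3B KO with DMSO, 111771 and 120428 after PMA 2 h, and 165877 and 169126 after PMA 6 h, all 500 bp long. With 1 library for each condition no difference between treatments has a replicate check, no p-value is given, and every interval below covers counting error alone. Read depth is not recorded in the lists, so a list that is longer because its library was deeper and a list that is longer because more regions were enriched cannot be told apart. In the basal epithelial list, chosen for this cell type, 15 of 18 genes held a shared DMSO region, beside 11317 of all 19970 protein-coding genes. The mesenchymal list gave 8 of 10, the luminal list 7 of 12 and the list of other tissues 4 of 24. The count therefore does not set basal genes apart from mesenchymal ones.

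To show what such a region looks like, 200 bases around the summit of the highest WT window with DMSO are given for 6 regions, read on the plus strand of hg38. Regions were ordered by the lower of their WT and A3B KO enrichment. Shown are the first of all, the first 3 near a protein-coding start, the first outside every gene after that, and the first in SLC7A5, taking only stretches that touch no annotated exon. Capitals mark runs of 3 or more G or of 3 or more C.
chr19:47932361-47932560: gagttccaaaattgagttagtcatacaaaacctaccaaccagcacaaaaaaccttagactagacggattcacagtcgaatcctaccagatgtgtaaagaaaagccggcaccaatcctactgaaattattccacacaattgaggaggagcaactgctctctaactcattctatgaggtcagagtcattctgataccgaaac
chr22:30575568-30575767, between GAL3ST1 and PES1: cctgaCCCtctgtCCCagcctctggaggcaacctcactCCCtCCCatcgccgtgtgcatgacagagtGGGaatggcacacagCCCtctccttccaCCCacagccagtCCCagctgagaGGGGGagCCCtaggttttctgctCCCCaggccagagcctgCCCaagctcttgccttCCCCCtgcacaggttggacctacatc
chr5:151590903-151591102, FAT2: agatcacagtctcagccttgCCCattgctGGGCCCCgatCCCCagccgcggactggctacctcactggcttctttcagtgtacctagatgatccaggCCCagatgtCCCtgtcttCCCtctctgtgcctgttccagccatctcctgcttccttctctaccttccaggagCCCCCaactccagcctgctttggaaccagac
chr7:155298834-155299033, INSIG1: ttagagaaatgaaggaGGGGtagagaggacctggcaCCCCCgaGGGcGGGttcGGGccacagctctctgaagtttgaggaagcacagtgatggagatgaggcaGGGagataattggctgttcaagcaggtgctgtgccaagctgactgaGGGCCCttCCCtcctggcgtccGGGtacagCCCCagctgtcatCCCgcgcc
chr6:13913570-13913769: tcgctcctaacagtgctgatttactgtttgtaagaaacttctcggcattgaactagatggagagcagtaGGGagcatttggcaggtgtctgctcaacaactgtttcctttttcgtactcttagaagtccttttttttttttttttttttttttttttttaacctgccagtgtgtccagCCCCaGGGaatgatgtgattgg
chr16:87848272-87848471, SLC7A5: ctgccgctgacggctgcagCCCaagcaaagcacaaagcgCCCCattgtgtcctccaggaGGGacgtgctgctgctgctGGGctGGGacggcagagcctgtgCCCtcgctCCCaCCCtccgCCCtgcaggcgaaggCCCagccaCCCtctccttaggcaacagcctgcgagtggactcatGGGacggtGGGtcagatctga

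The stretches in genes and the one between GAL3ST1 and PES1 held between 58.5% and 66.5% G and C. Those in FAT2, INSIG1 and SLC7A5 carried 8, 12 and 13 runs of G or C. FAT2 and SLC7A5 lie on the minus strand, so the C runs printed here are G runs of the strand that reads like their transcripts. The stretch on chromosome 19 held no run at all and 41.5% G and C. Each of its 170 overlapping 31-base words occurred more than once in hg38, at a median of 14 copies. The stretch on chromosome 6, also outside every gene, held 40% G and C, and 15 of its 170 words occurred more than once. None of the words in the 4 stretches in or near genes did.

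Most of what was called with DMSO in both lines was called again in the lists made after PMA, all of which are longer than the DMSO lists. Of the 48210 shared DMSO regions, 40547 (84.1%) were called at both PMA times in at least 1 line, 4364 (9.05%) at 6 h and not at 2 h, 1453 (3.01%) at 2 h and not at 6 h, and the 1846 DMSO-only regions at neither. All 6 lists held 28995 of them. The absence at 2 h was thus more often followed by a call at 6 h than by a further absence, and the 6 h lists were also the longest.

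DMSO-only regions were among the weaker regions of their lists. The fold enrichment compares the pileup at a summit with the background estimated around it. It had a median of 3.71 in WT and 3.68 in A3B KO, against 4.83 and 4.81 in the 46364 shared DMSO regions that were also called after PMA. The summit pileup, in fragments, had a median of 20 in WT and 19 in A3B KO. For each region the lower of its highest WT and highest A3B KO fold is called the lower fold, and its median was 3.30 (95% interval of the median 3.26 to 3.32) in DMSO-only regions and 4.21 in the others. Among those others it was 3.32 in regions called again only at 2 h, 3.74 only at 6 h and 4.31 at both times. A low value was thus not particular to DMSO-only regions. When the shared DMSO regions were ordered by lower fold and cut into 10 equal groups, 10.3% of the weakest group were DMSO-only, 3.73% of the fifth and 0.270% of the strongest. These values sit on the scale by which windows were called and so describe which regions the rule can reach.

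**Figure D1:**
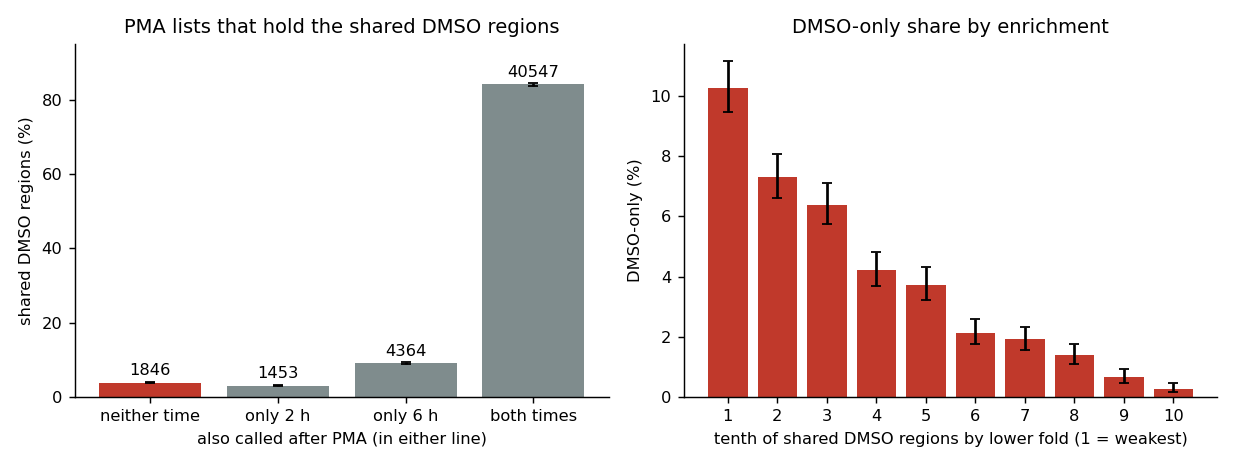
Left, the share of the 48210 shared DMSO regions that were also called after PMA in either line at neither time, only 2 h, only 6 h or both times, with the number of regions above each bar. Right, the percent of DMSO-only regions in each of 10 equal groups of the shared DMSO regions ordered by lower fold, from 10.3% in the weakest to 0.270% in the strongest, with 95% Wilson intervals in both panels.

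Both lines gave these regions like values. The fold was higher in A3B KO in 928 of the 1846 and higher in WT in 918, with a median log2 ratio of A3B KO over WT of 0.00 and a middle span from -0.26 to 0.25. In 29 regions (1.57%) the lines differed by more than 2-fold, against 927 (3.20%) of the regions called in all 6 lists, and the rule, which asks for a call in both lines, bears on this count. Across the regions the log2 folds of the lines had a Pearson r of 0.41, against 0.66 in the regions called in all 6 lists. These points share libraries, and the narrower range of DMSO-only values bears on r.

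The summits of both lines lay less close together than in other regions. The groups were not matched for enrichment, which was lower in DMSO-only regions than in other shared DMSO regions, and its part here was not tested. In the 1717 DMSO-only regions with exactly 1 window in each DMSO list the summits were a median of 59 bp apart, and 65.8% (63.5 to 68.0) were within 100 bp. That share was 75% (74.6 to 75.5) in shared DMSO regions that were also called after PMA and 78.8% (77.0 to 80.4) in the 2345 regions called only after PMA 2 h in both lines. Pairs of lists under different treatments also gave regions of their own. Windows of WT with DMSO and A3B KO after PMA 2 h alone met in 1291 regions, with 74.7% of summits within 100 bp, and those of WT with DMSO and A3B KO after PMA 6 h alone met in 2598.

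The absence of a PMA window was often a local one. A window of some PMA list lay within 1000 bp of 777 DMSO-only regions (42.1%) and within 100 bp of 127. The median distance to the nearest window was 4125.5 bp in the WT PMA 2 h list and 2331 bp in the longer A3B KO PMA 6 h list. At the edge of the rule, 65 members had a PMA window no more than 50 bp away and a median lower fold of 3.30, and 37 shared DMSO regions were left out through a PMA overlap of at most 50 bp, with a median lower fold of 3.24. At the edge of the peak calls, 231 members had a −log10 q under 2.5 in a DMSO list, where the lists themselves stop at 2.00.

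DMSO-only regions lay mostly in genes. Their midpoints lay inside an annotated gene in 80.2% (78.3 to 82.0), against 69.3% of shared DMSO regions also called after PMA, 71.0% of regions called only after PMA 2 h and 67.0% of all merged regions. In 24.1% (22.2 to 26.1) the midpoint was in an exon of a protein-coding or long noncoding RNA gene, against 11.9%, 10.9% and 6.90% in the same groups. In no gene lay 365 members, 19.8% against 30.7% of shared DMSO regions also called after PMA, and in long noncoding RNA genes alone 145, 7.85% against 9.66%.

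Both ends of genes took part. Within 2 kb of a protein-coding start lay 349 members, 18.9% (17.2 to 20.8), against 13.8% of shared DMSO regions also called after PMA and 10.4% of the PMA 2 h regions. Within 2 kb of a protein-coding end lay 394 members, 21.3% (19.5 to 23.3), against 10.2% and 7.33%. The 200 members in the last 2 kb before an end made 10.8% of the DMSO-only regions and such regions made 4.21% of the shared DMSO regions also called after PMA. Outside protein-coding genes and 0 to 5 kb past an end, where transcripts run on before polymerase lets go, lay 183 members, 9.91% (8.63 to 11.4) against 6.97%. The shares at starts and in genes were not particular to DMSO-only regions. With the PMA 6 h lists alone in the rule, regions called again only at 2 h enter as well. The 3299 regions chosen in that way lay near a start in 19.3% and in a gene in 79.0%.

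The gap in position was present on both sides of the DMSO-only median of the lower fold. Among regions with a lower fold under the DMSO-only median, 27.1% of DMSO-only regions (247 of 911) and 11.8% of the other shared DMSO regions (1142 of 9691) had their midpoint in an exon, and at or above that median the shares were 21.2% and 12%. Within 2 kb of a protein-coding end the shares were 24.1% and 9.31% in the weaker part and 18.6% and 10.4% in the stronger. For starts the gap was 18.2% against 12.1% and 19.6% against 14.3%. In the 3 strongest of the 10 groups, which hold 67, 31 and 13 members, the exon shares were 11.9%, 9.68% and 15.4% in DMSO-only regions and 11%, 11% and 22.3% in the others, and the shares near an end were 17.9%, 12.9% and 15.4% against 9.51%, 10.8% and 17.3%.

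Sequence differed in the same direction as position. The merged DMSO-only regions had a median of 49.9% G and C (49.4 to 50.4), the other shared DMSO regions 46.8% and all merged regions 44.8%. The 500 bp at their centre held a median of 16 runs of 3 or more G on either strand, against 13 in the other shared DMSO regions. In the 1162 members inside protein-coding genes of a single strand that carried unequal numbers of runs, 69.0% (66.3 to 71.6) had more G runs on the strand that reads like the transcript. The same share was 57.1% (56.4 to 57.7) in the other shared DMSO regions and 61.5% in PMA 2 h regions. G runs on that strand are the arrangement known to favour R-loops in a test tube.

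Known binding letters were searched on both strands of the same 500 bp. The GC box GGGCGG, which Sp1 binds, was in 20.8% (19 to 22.7) of DMSO-only regions, 17.6% of other shared DMSO regions and 11% of all merged regions. The E-box CACGTG was in 6.88%, 5.58% and 4.93%. The AP-1 letters TGANTCA, bound by Fos and Jun, were in 11.6% (10.3 to 13.2), 10.5% and 11.8%, so DMSO-only regions matched all merged regions there within counting error. A match is a string of letters and not a bound site.

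Repeated sequence was less common in DMSO-only regions. Of 19 words of 31 bases spread over the central 500 bp, at least 50% occurred more than once in hg38 in 205 members, 11.1% (9.75 to 12.6). This was so in 25.3% (24.9 to 25.7) of other shared DMSO regions, in 29.1% of regions called in all 6 lists and in 11.4% of PMA 2 h regions. Among the 50 members with the highest lower fold 9 were such regions, 18% (9.77 to 30.8). How reads from repeated sequence were placed moves with this measure, and its part in the calls was not tested.

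Taken by lower fold, the list opens with regions of little known function. The highest, chr19:47932210-47932738, lies outside every gene and had a fold of 9.16 in WT and 8.35 in A3B KO. Its repeated sequence is the first one printed above. Next came a region in the first kilobase of PPM1K, a mitochondrial phosphatase that switches on branched-chain amino acid breakdown, with 7.84 in WT and 7.74 in A3B KO. Introns of PPP2R5E, a regulatory subunit of phosphatase 2A, and of NRG4, an ERBB4 ligand, followed with 7.67 in WT for each and with 7.61 and 7.35 in A3B KO. Of the first 12 members, 5 lay outside every gene and 10 had their midpoint over 5 kb from the nearest protein-coding start.

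Near starts, named members belonged to genes of several functions. PAXIP1, a DNA damage adaptor, had a region upstream of its start, in the divergent transcript PAXIP1-DT, with folds of 7.09 in WT and 7.44 in A3B KO, and the nearest PMA window was 13700 bp away. KCTD12, which binds GABA-B receptors, had 5.85 and 6.92, in a gene with no window in any PMA list and, beside the member, 1 window in WT and 0 in A3B KO with DMSO. INSIG1 had 5.71 and 8.05 at 1138 bp past its start, and its product holds back sterol synthesis when cholesterol is plentiful. FAT2, a cadherin-like protein of keratinocyte migration, had 6.52 and 5.72 at 313 bp. RRM1, the large subunit of ribonucleotide reductase, had 5.73 and 5.20 at 857 bp.

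At 425 protein-coding starts a DMSO-only region lay within 2 kb, which is 7.08% of the 6004 starts with a shared DMSO region there. A start could hold other windows beside its DMSO-only region. At 165 of the 425 no window of any PMA list lay within 2 kb, and at 220 no window of the PMA 2 h lists did.

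Inside genes, DMSO-only regions were mostly single. They lay in 1326 protein-coding genes, 11.7% of the 11317 with a shared DMSO region inside, and 1168 of these genes held 1, 132 held 2, 21 held 3, and 5 held more. Where genes overlap, a region counts for each, since the pull-down does not tell strands apart.

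SLC7A5 was among the genes with the most members. It encodes the light chain of the LAT1 transporter, which brings leucine and other large neutral amino acids into growing cells, and lies at chr16:87830023-87869507. Of its 14 shared DMSO regions 6 were DMSO-only, spread from 2890 to 33913 bp past the start. The gene held 27 windows in WT with DMSO, 1 after PMA 2 h and 12 after PMA 6 h. In A3B KO it held 22, 2 and 6. The rule leaves the members without a PMA window, so the gene was also counted without them, which gave 20, 1 and 12 windows in WT and 14, 2 and 6 in A3B KO. On that count too both PMA 2 h lists were nearly empty over the gene and both 6 h lists lay between. Ordered by lower fold, its DMSO-only regions ran from 5.22 in WT and 4.30 in A3B KO to 3.03 and 2.99. The gene of its partner chain, SLC3A2, held 1 DMSO-only region among 9 shared ones and 13, 11 and 8 windows in WT and 12, 9 and 15 in A3B KO.

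The fatty acid desaturase genes overlap on chromosome 11. FADS2 (chr11:61792980-61867354) held 6 DMSO-only regions and FADS1 (chr11:61799627-61829318) held 4, all of them also inside FADS2. The FADS1 span held 4 windows in WT with DMSO, none after PMA 2 h and 1 after PMA 6 h, and 5, 0 and 0 in A3B KO. All 4 of its shared DMSO regions were DMSO-only, and without them it held 0, 0 and 1 windows in WT and 1, 0 and 0 in A3B KO, so the rule itself fixes most of this drop. The other 2 members of FADS2 lay in FEN1, the flap endonuclease of lagging-strand synthesis, which shares that stretch, and the higher had 7.47 in WT and 4.56 in A3B KO. Which of the overlapping genes gave these hybrids cannot be told apart.

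For other genes with several members the windows are given without those of the members, with DMSO, after PMA 2 h and after PMA 6 h. SLC29A2, an equilibrative nucleoside transporter with 3 members, held 3, 0 and 1 in WT and 2, 0 and 2 in A3B KO. POLA2, a subunit of DNA polymerase alpha with 4 members, held 6, 3 and 8 in WT and 5, 2 and 7 in A3B KO. TRAP1, a mitochondrial chaperone with 3 members, held 15, 7 and 15 in WT and 12, 4 and 10 in A3B KO. All 3 thus had their fewest windows at 2 h in both lines, as did SLC7A5 above. Not every gene with many members did. ENSG00000285816, which overlaps POLA2 and holds the same 4 members, had 14, 11 and 18 in WT and 15, 16 and 20 in A3B KO. FADS2 had 6, 4 and 8 in WT and 7, 4 and 3 in A3B KO. These genes were taken for their members, which the rule chose by missing PMA windows. KIAA1671, a long gene with 3 members, held 32, 21 and 34 windows in WT and 24, 28 and 31 in A3B KO, so its lines differed at 2 h.

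Gene lists gave the other side of the same count. They describe these lists only and were not tested as sets. Of the DNA replication list, 10 of 25 genes with a shared DMSO region held a DMSO-only region, 40% beside 11.7% of all protein-coding genes, or 11 of their 66 shared regions (16.7%) beside 4.73%. Among these genes were CDC45, MCM2, MCM4, MCM5, ORC1, POLD1, RRM1, RRM2 and TYMS. MCM2, a subunit of the replicative helicase, had a fold of 5.13 in WT and 4.52 in A3B KO at 938 bp past its start. RRM2 had 5.91 and 5.31 at its higher of 2 members. ORC1, which marks origins, had 4.76 in WT at 195 bp, with 4.0 in A3B KO. Without its members the list held 121, 118 and 132 windows in WT and 95, 115 and 130 in A3B KO. From DMSO to 2 h it thus lost a few windows in WT and gained some in A3B KO. Over all protein-coding genes the same count rose from 58661 to 67747 in WT and from 61764 to 75221 in A3B KO.

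In the ribosome biogenesis list 10 of 30 genes held a member, 33.3% (19.2 to 51.2), beside 11.7% of all protein-coding genes. In the mitochondrial ribosomal proteins 12 of 56 did, 21.4% (12.7 to 33.8). The cytosolic ribosomal proteins had 8 of 79, 10.1% (5.22 to 18.7), and the intervals of these ribosomal protein lists overlap. FBL, the methyltransferase of box C/D snoRNPs, held 2 members among 4 shared regions. Without those of the members its windows numbered 4, 1 and 2 in WT and 3, 0 and 4 in A3B KO. LYAR, a nucleolar growth factor, held 4, 0 and 5 in WT and 3, 0 and 6 in A3B KO on the same count. These genes were picked after their values were seen, and others of the list changed less, such as NOP58 with 16, 10 and 12 windows in WT and POLR1C with 13, 12 and 10, members included. Without its members the list held 176, 125 and 213 windows in WT and 182, 138 and 262 in A3B KO. Over all protein-coding genes the same count was 58661, 67747 and 96939 in WT and 61764, 75221 and 101954 in A3B KO, so the rise from 2 h to 6 h was general and the lower count at 2 h than with DMSO was not. RPL36 was the cytosolic ribosomal gene with the most members, with 3 among 5 shared regions.

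Sterol synthesis had 6 of 19 genes with a member (31.6%), or 9 of 58 regions (15.5%). INSIG1, described above, was among them, and DHCR7, an enzyme of cholesterol synthesis, held 3, 0 and 0 windows beside its member in WT and none in A3B KO. Without the members the list held 99, 49 and 93 windows in WT and 78, 67 and 86 in A3B KO. Amino acid transport and stress had 4 of 18 genes, of which SLC7A5 carried 6 of the 9 members.

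In lists of genes tied to PMA signalling the counts were too small to set against the 11.7% of all protein-coding genes. No gene of the immediate early list (0 of 21), of the NF-kB targets (0 of 11) or of protein kinase C and D (0 of 10) held a DMSO-only region inside, and a count of 0 allows up to 15.5%, 25.9% and 27.8% (Wilson), limits that all include 11.7%. In the MAPK feedback list 1 of 8 genes, DUSP10, held a member (12.5%). At starts the only one was a region upstream of FOSL2, an AP-1 subunit, with 4.26 in WT and 4.55 in A3B KO. Of the 13 genes that the study examined by DRIP and that held a shared DMSO region, 0 held a DMSO-only region (up to 22.8%). Windows of the immediate early list went from 79 to 103 in WT and from 90 to 123 in A3B KO at 2 h, and those of the NF-kB list from 26 to 52 and from 33 to 86. Over all protein-coding genes they also rose, from 60256 to 67747 in WT and from 63349 to 75221 in A3B KO.

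In the list of R-loop regulators 5 of 13 genes held a member, 38.5% (17.7 to 64.5) beside 11.7% of all protein-coding genes, or 9.80% of regions beside 4.73%. Among them were 2 subunits of RNase H2, RNASEH2A with 2.77 in WT and 3.62 in A3B KO and RNASEH2C with 2.91 and 2.41, and SRSF1, a splicing factor whose loss is known to raise R-loops, with 3.11 and 5.37. Each was the single member of a gene that held windows in every list, 6 to 8 of them for RNASEH2C. In the remaining lists between 0 and 4 genes held a member, to be read against the same 11.7%: mitosis 3 of 23, with KIF11 highest at 5.20 and 5.32, basal epithelial 3 of 15 (COL17A1, ITGB4 and KRT5), glycolysis 3 of 16, small nucleolar RNA hosts 4 of 17, tRNA synthetases 2 of 18, housekeeping 2 of 18, common fragile site genes 2 of 19, EGF receptor system 2 of 14, p53 targets 1 of 12, YAP and TEAD targets 1 of 16, histones 1 of 13, luminal epithelial genes 1 of 7, other tissues 1 of 4, and mesenchymal, interferon-stimulated and olfactory receptor genes 0 of 8, 5 and 6. Counted at starts with a shared DMSO region, histones had 6 of 28 and tRNA synthetases 3 of 10, beside 7.08% of all such starts. Some histone starts share a region, as H3C12, H2AC17 and H2BC17 do. Mitosis had 0 of 14 starts, small nucleolar RNA hosts 0 of 13 and basal epithelial genes 0 of 9.

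The other windows of the same genes were counted in the same 6 lists that the rule used. A gene with few PMA windows meets the rule more easily, so this count is not independent of the choice. How much of the gap below comes from the choice was not tested. With the windows of the DMSO-only regions themselves left out, which removes windows from the DMSO lists alone, 49.2% (46.4 to 51.9) of 1241 genes with a DMSO-only region had fewer windows in WT after PMA 2 h than with DMSO. Of 9985 other genes with a shared DMSO region, 34.5% (33.6 to 35.5) did. In A3B KO the shares were 42.4% (39.7 to 45.2) and 30.2% (29.3 to 31.1). At 6 h, with longer lists, they were 27.9% and 18.3% in WT and 22.2% and 16% in A3B KO. More windows than with DMSO were held at 2 h by 35.8% of genes with a DMSO-only region in WT and 39.5% in A3B KO. Among other genes these shares were 43.7% and 48.2%. At 6 h most genes gained windows, 57.8% in WT and 60.7% in A3B KO of those with a DMSO-only region and 64.9% and 66.4% of the others. Genes with a member held a median of 3 shared DMSO regions and the others 2, at median lengths of 40025.5 and 43049 bp.

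The median enrichment of those other regions rose in both groups of genes, by slightly less inside genes with a DMSO-only region. In regions called with DMSO and after PMA 2 h, the median log2 ratio of folds was 0.04 (0.02 to 0.06) inside genes with a DMSO-only region and 0.09 (0.08 to 0.10) inside other genes in WT. In A3B KO it was 0.15 (0.13 to 0.17) and 0.22 (0.21 to 0.22). At 6 h the medians were 0.22 and 0.28 in WT and 0.12 and 0.16 in A3B KO. All 8 medians were positive, and the cause was not tested.

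A3B-eGFP was set beside these regions in other cells. Windows of the doxycycline list with DMSO overlapped 56 DMSO-only regions, 3.03% (2.34 to 3.92), where 1.34% of all merged regions were overlapped. After PMA 2 h the overlap was 17 regions, 0.921% (0.576 to 1.47), where 1.44% of all merged regions were overlapped, and without doxycycline it was 5 regions, 0.271%, where 0.835% were. The regions called only after PMA 2 h gave the opposite order, with 1.75% (1.29 to 2.36) for doxycycline with DMSO and 6.10% (5.20 to 7.14) for doxycycline with PMA. Among DMSO-only regions 47 were overlapped in the doxycycline list with DMSO alone and 9 in the doxycycline list with PMA alone, and among PMA 2 h regions 12 and 114. In other shared DMSO regions both overlaps were like in size, 4.05% and 3.66%. Without doxycycline 2.05% of them were overlapped, against 0.271% of DMSO-only and 0.341% of PMA 2 h regions. Their overlaps with doxycycline therefore stand on a higher anti-GFP background.

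KRT5, a keratin of basal epithelium, had the highest of the 56, chr12:52517836-52518342 in an exon, with 6.64 in WT and 5.50 in A3B KO. The gene held 7 A3B-eGFP windows with doxycycline and DMSO and none with PMA or without doxycycline. The basal epithelial list as a whole went the other way, with 34 windows for doxycycline with DMSO and 165 for doxycycline with PMA. SLC7A5 held 7 as well and none in the other lists. FAT2 held 2, 0 and 0 in the same order. A region 1034 bp past the end of RPL29, a ribosomal protein gene, had 5.03 and 5.41, and a region 1079 bp past the end of KRT14, the partner of KRT5, had 5.95 and 3.64. Several more of the 56 lay close to starts, such as ADAT2 at 108 bp with 4.66 and 5.98, TYSND1 at 478 bp with 4.26 and 4.09, and GALK1, the first enzyme of galactose breakdown, at 386 bp with 3.91 and 3.74. Genes with a DMSO-only region held an A3B-eGFP window with doxycycline and DMSO in 203 of 1326 (15.3%) and with PMA in 128 (9.65%), and other genes in 12.1% and 10.3%.

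**Figure D2:**
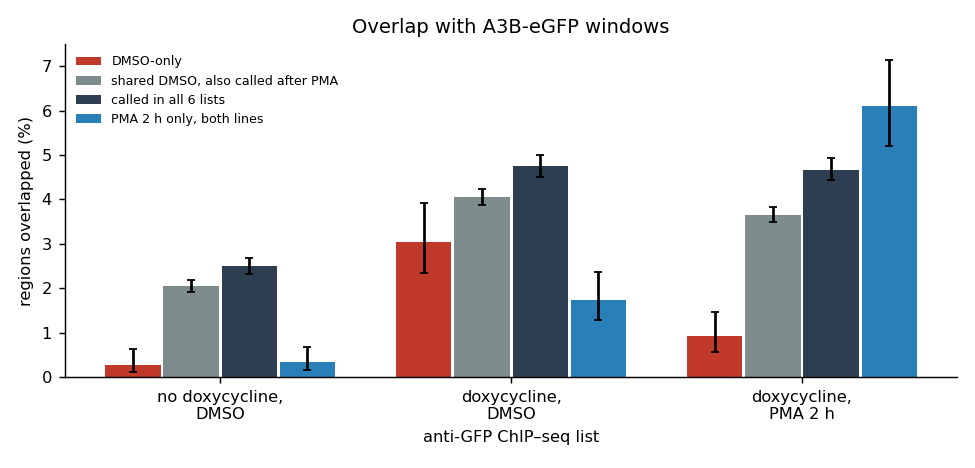
Percent of regions overlapped by at least 1 bp by a window of each anti-GFP ChIP–seq list, for DMSO-only regions, other shared DMSO regions, regions called in all 6 DRIP–seq lists and regions called only after PMA 2 h, with 95% Wilson intervals. DMSO-only regions show 3.03% for doxycycline with DMSO and 0.921% for doxycycline with PMA, and PMA 2 h regions show 1.75% and 6.10%.

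The members were spread over all chromosomes. Their share of the shared DMSO regions ran from 2.82% (1.83 to 4.31) on chromosome 13 to 5.33% (4.29 to 6.61) on chromosome 22. Chromosome 1 gave the most members, 157, at 2.93% (2.51 to 3.42), and chromosome X 38, at 2.88%.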

How the data were processed

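The measurements were 9 peak lists, 1 for each library: 6 from DRIP–seq in MCF10A (WT and A3B KO) and 3 from anti-GFP ChIP–seq in MCF10A-TREx-A3B-eGFP. The 18 samples were grouped from their titles, and the 9 inputs entered only through the authors' peak calls. Per the submitters' processing notes, reads were trimmed with cutadapt 1.13, aligned with STAR 2.6.1d to hg38, filtered with SAMtools 1.3.1, Picard and bedtools 2.29.2, and peaks were called with MACS2 2.2.6 (the methods name an older version) with summits at a q of 0.01. In the deposited lists the pileup is the signal at the summit, the fold is the authors' ratio to the local background, and the −log10 p and q compare a library with its input. Scaling of these lists between libraries is not given in the sources used here (the authors' RPKM scaling is of coverage tracks, not used here), depth is unknown, and the first base of a window is uncertain by 1 bp.

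Windows were joined at 1 bp of overlap with Python 3.11.15, pandas 2.3.3 and pysam 0.24.0. Genes, exons and ends are those of GENCODE 44 without pseudogenes, and a start was counted within 2 kb of a region's edge. Wilson intervals are at 95%. The merging was tested on simulated data. The members and gene lists were chosen with earlier results of these data known. Named regions were ranked by lower fold: the first 12 of all, 12 near starts, 6 outside genes, 5 in long noncoding RNA genes and 5 that overlap A3B-eGFP, plus the 10 genes with the most members and the members of each gene list, of which those most informative are given. Repeated words, strand of G runs and other windows of the same genes were added after the data were seen. In all, 8 alternatives were tried. Some genes of the lists are counted but not reported here by name.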

Additional observations from a re-analysis of the deposited data

How the results depend on the processing

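No paired analysis was possible because each condition has 1 library. Of 56 values (7 results under 8 alternatives), 26 stayed within the interval of the reported value, or within 1.5 times the count, and 30 moved. Merging the DMSO lists alone and asking for direct overlap moved none of the 7. With −log10 q of at least 5 in all lists there were 1140 regions, 3.52% of shared DMSO regions, 24.3% at starts, 4.65% on A3B-eGFP, 51.5% G and C and a median lower fold of 4.03, and 689 of the 1846 members were touched by one of these. With that limit in the DMSO lists alone there were 692, 2.14%, 78.3% in genes, 23.1% at starts, 4.05% on A3B-eGFP and a fold of 4.06. With lists of equal length, 91894 windows each, there were 5332, 11.5%, 77.6% in genes, 48.7% G and C and a fold of 3.38, so the count moves with the length of the lists. Joining at 250 bp gave 4.47% of shared DMSO regions. Leaving out regions with a PMA window within 1000 bp gave 1069, 2.22%, 16.2% at starts and 2.15% on A3B-eGFP. With the PMA 2 h lists alone there were 6210, 12.9%, 76.7% in genes, 17% at starts, 47.7% G and C and a fold of 3.57. With the PMA 6 h lists alone there were 3299 and 6.84%, while 79.0% in genes and 19.3% at starts stayed within their intervals. In the 8 alternatives the share in genes ranged from 76.7% to 80.4%.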
